A study of Mus musculus with 42 samples.

Results

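LEF1 and β-catenin binding was compared in caudal epiblast-like cells (epiblast-like cells per the labels, after WNT activation) that lacked CDX factors, over 6 chromatin immunoprecipitation followed by sequencing (ChIP–seq) libraries of the 42 samples in the series. The 6 were chosen by their labels, as all libraries of either factor from CdxKO cells: 3 used an antibody to LEF1 (Millipore CS200635) and 3 an antibody to β-catenin (Invitrogen 71-2700). CdxKO cells carry mutations of Cdx1, Cdx2 and Cdx4 and come from HM1 mouse embryonic stem cells of 129 strain, so that the line and its genotype cannot be told apart. All 6 were grown in FGF with LGK974, which blocks WNT secretion, received CHIR99021, which activates the pathway inside the cell, for the last day, and were fixed at 72 h with a protein crosslinker (DSG) followed by PFA. The same 2 factors in wild-type (WT) and T/BraKO cells (6 libraries each), and SOX2 in CdxKO cells (3 libraries), served as comparison, all with CHIR99021, and the 12 input samples were not analysed here. Each library was represented by 1 deposited peak list, which gives no read total, so the depth is unknown.

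WNT signalling stabilizes β-catenin, which enters the nucleus but does not bind DNA by itself. It is brought to target genes by the TCF/LEF family (TCF7, TCF7L1, TCF7L2 and LEF1), whose members bind a common DNA word. In the caudal epiblast this pathway switches on posterior and mesodermal genes, the Cdx genes among them, as well as genes that restrain the pathway itself, such as Axin2 and Nkd1.

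The sequences that follow show 201 bp around the best summit of regions on which the comparison turns, on the plus strand of GRCm38.p6 (mm10), read from RefSeq. Capitals mark the TCF/LEF word, CTTTGAA or CTTTGAT on either strand. The first is the region with the best mean rank over all 6 libraries, in an intron of Mapkap1, a subunit gene of the kinase complex mTORC2 (chr2:34570483-34570683).
Mapkap1 intron: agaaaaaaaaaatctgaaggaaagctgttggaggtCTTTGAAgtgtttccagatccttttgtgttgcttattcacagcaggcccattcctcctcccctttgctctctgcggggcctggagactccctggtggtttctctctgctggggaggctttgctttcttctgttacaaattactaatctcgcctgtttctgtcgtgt
The next 5 are the best-ranked shared regions at genes of the WNT feedback list. They lie at the start of Sp5 (chr2:70474835-70475035), in introns of Znrf3 (chr11:5411700-5411900) and Tcf7l2 (chr19:55792659-55792859), downstream of Nkd1 (chr8:88604042-88604242) and at the start of Axin2 (chr11:108921142-108921342).
Sp5: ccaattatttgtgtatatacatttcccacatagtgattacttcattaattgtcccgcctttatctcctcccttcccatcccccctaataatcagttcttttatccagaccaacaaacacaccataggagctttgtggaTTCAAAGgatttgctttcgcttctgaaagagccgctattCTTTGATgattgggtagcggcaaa
Znrf3: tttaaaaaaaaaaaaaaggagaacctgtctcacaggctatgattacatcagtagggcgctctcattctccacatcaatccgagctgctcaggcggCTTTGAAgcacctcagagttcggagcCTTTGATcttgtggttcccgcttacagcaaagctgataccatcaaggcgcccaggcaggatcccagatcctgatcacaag
Tcf7l2: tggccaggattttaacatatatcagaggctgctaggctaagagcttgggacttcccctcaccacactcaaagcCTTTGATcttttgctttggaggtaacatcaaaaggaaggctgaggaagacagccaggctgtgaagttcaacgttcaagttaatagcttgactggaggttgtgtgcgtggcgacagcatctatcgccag
Nkd1: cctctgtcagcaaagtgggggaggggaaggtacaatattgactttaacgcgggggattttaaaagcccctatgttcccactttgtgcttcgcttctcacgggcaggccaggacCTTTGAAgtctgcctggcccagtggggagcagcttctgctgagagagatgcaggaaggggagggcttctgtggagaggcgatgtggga
Axin2: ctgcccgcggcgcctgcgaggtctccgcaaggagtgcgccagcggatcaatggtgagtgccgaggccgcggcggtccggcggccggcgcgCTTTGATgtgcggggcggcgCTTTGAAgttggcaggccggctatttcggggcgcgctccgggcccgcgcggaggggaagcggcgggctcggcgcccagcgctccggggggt
Of these 5 windows, those at Sp5, Znrf3 and Axin2 held 2 TCF/LEF words each, and those at Tcf7l2 and Nkd1 held 1. For contrast, 2 regions called for LEF1 and not for β-catenin are shown: the best-ranked (chr9:3002032-3002232), inside Gm10722 and 100% repeat-masked, and the best-ranked that holds the word (chr15:78368991-78369191), 19678 bp from Tex33.
LEF1 only, Gm10722: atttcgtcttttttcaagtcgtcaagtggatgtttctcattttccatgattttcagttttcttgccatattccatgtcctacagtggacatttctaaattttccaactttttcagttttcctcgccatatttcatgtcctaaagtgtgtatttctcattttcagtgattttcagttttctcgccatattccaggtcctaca
LEF1 only, Tex33: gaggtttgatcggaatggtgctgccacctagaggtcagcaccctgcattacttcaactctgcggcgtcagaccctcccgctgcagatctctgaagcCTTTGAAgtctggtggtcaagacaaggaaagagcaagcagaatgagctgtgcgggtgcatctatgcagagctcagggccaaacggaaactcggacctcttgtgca
Among regions called for β-catenin but not for LEF1 in the 20000 best peaks, the best-ranked is shown, upstream of Cga (chr4:34889253-34889453), with the best-ranked that holds the word, near Rhcg (chr7:79592233-79592433). Both were in all 3 full LEF1 lists, at lower ranks.
β-catenin only, Cga: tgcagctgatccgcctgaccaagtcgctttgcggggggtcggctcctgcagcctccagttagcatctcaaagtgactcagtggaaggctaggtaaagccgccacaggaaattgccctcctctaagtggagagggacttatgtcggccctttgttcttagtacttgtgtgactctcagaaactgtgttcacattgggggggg
β-catenin only, Rhcg: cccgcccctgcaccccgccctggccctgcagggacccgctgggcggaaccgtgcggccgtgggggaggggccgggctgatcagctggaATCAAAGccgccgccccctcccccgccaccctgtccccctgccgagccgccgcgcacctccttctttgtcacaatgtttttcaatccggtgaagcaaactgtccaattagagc
The last is the region whose LEF1 ranks exceeded its β-catenin ranks most, in the first exon of Tcf7l1 (chr6:72788705-72788905). It holds no TCF/LEF word.
Tcf7l1 exon: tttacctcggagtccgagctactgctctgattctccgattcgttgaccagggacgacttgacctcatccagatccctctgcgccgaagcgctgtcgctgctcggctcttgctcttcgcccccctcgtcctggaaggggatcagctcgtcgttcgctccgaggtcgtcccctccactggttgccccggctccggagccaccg

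LEF1 lists were longer than β-catenin lists. They held 607176, 759597 and 462059 peaks (replicates 1 to 3), against 85949, 40630 and 140907 for β-catenin. The groups did not overlap, with a 7.57-fold ratio of geometric means (two-sided exact permutation p = 0.10, the smallest that 3 against 3 libraries allow). At the top of the lists the order was the other way round. The peak at rank 1000 had a −log10 q of 17.9 to 27.2 in LEF1 lists and 62.2 to 84.5 in β-catenin lists, and the median fold enrichment of the 1000 best peaks was 18, 15.9 and 14.2 for LEF1 and 37.2, 33.1 and 40.2 for β-catenin. Over the 20000 best the order turned back. The median fold was 7.92 to 9.13 for LEF1 and 6.38 to 6.70 for β-catenin. The −log10 q of the peak at rank 20000 was 8.11 to 11.7 and 4.77 to 6.66. Peaks were therefore compared by rank, over the 1000, 5000 and 20000 best of each list by −log10 q. Equal rank does not mean equal strength.

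The best LEF1 sites were found again in β-catenin lists more often than in other LEF1 lists. Of the 500 best LEF1 peaks, 92.0 ± 1.32% (SD, n = 3 libraries) overlapped a peak in a β-catenin list and 83.2 ± 0.945% overlapped one in another LEF1 list, each list at its 20000 best and averaged over lists. From rank 1001 to 2000 the shares were 35.9 ± 1.85% and 22.2 ± 2.07%, and from rank 10001 to 20000 they were 4.32 ± 0.228% and 2.21 ± 0.118%. β-catenin peaks behaved differently. Of the 500 best, 100.0 ± 0.0577% were in another β-catenin list and 86.1 ± 1.95% in a LEF1 list. From rank 2001 to 5000, 76.6 ± 2.66% were in another β-catenin list and 21.6 ± 0.725% in a LEF1 list. In each of these ranges the 3 LEF1 libraries lay close together, so low recall of LEF1 peaks was not the property of 1 library. The 20000 best β-catenin peaks covered 0.189% of the genome on average and those of LEF1 0.167%.

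**Figure D1:**
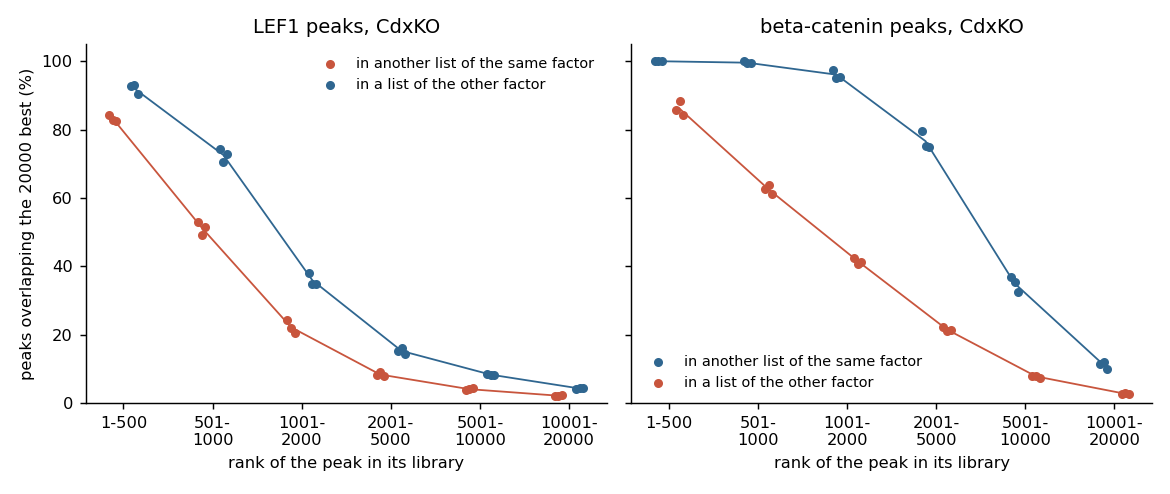
Share of peaks (%, y axis) of each CdxKO library that overlapped the 20000 best peaks of another list, by rank of the peak (x axis). Points are libraries (n = 3), lines are means, and colour gives the factor of the list compared with (red LEF1, blue β-catenin). At every rank range LEF1 peaks (left) overlapped β-catenin lists more than other LEF1 lists, 92.0% against 83.2% for the 500 best.

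The Jaccard index of 2 lists, the regions they have in common divided by all their regions, gave the same order. Over the 20000 best peaks it was 0.0413 between LEF1 lists (0.0410 to 0.0420, 3 pairs), 0.215 between β-catenin lists (0.199 to 0.233, 3 pairs) and 0.0664 between a list of each (0.0641 to 0.0695, 9 pairs). No pair of LEF1 lists reached the lowest cross-factor pair. At 5000 peaks the 3 means were 0.101, 0.488 and 0.152, and at 1000 peaks 0.280, 0.591 and 0.288. The mean within factors exceeded that between factors by 0.0619, the largest of the 10 divisions of the 6 libraries (one-sided exact permutation p = 0.10, the smallest possible), an excess that came from β-catenin pairs alone. Without 1 β-catenin library it was 0.0151 to 0.0220 (one-sided exact permutation p = 0.400).

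Merging the 20000 best peaks of all 6 libraries gave 94142 regions. Of these, 49775 were in 1 LEF1 list and no β-catenin list, and 32203 in 1 β-catenin list and no LEF1 list. Shared regions, called in at least 2 of 3 libraries of both factors, numbered 2062, of which 892 were in all 6 lists. LEF1 only regions (at least 2 LEF1 libraries, no β-catenin library) numbered 456, and β-catenin only regions 5831. Shared regions were 75.5% of the 2732 regions in at least 2 LEF1 lists and 20.4% of the 10094 in at least 2 β-catenin lists. Because the calls define the classes, their sizes were not tested. With 3 of 3 libraries required, 20 regions were LEF1 only and 2287 β-catenin only. Leaving out any 1 LEF1 library, so that both others had to agree, left 1313 to 1325 shared and 156 to 176 LEF1 only regions. Without any 1 β-catenin library, 3149 to 3809 regions were β-catenin only.

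Among regions that recurred in 2 or more of the 3 libraries of a factor, a filter that few deep LEF1 peaks passed, the share of LEF1 regions that β-catenin also called fell more slowly with rank than the converse. The shares of single peaks given above did not show this order in the middle ranks. Regions were placed by the median of a factor's 3 ranks. Of 370 LEF1 regions with a median rank up to 500, 356 (96.2%, 95% Wilson interval 93.7 to 97.7%) were in at least 2 β-catenin lists, and 99.2% were in at least 1. From rank 5001 to 10000 the share was still 72.7% (68.7 to 76.3%), and from 10001 to 20000 it was 51.0% (47.4 to 54.6%). For β-catenin regions the share in at least 2 LEF1 lists was 91.1% (88.2 to 93.4%) up to rank 500, 44.5% (41.2 to 47.8%) from 1001 to 2000 and 4.78% (4.05 to 5.65%) from 10001 to 20000. The intervals cover counting error only, and regions of 1 set of libraries are not replicates.

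**Figure D2:**
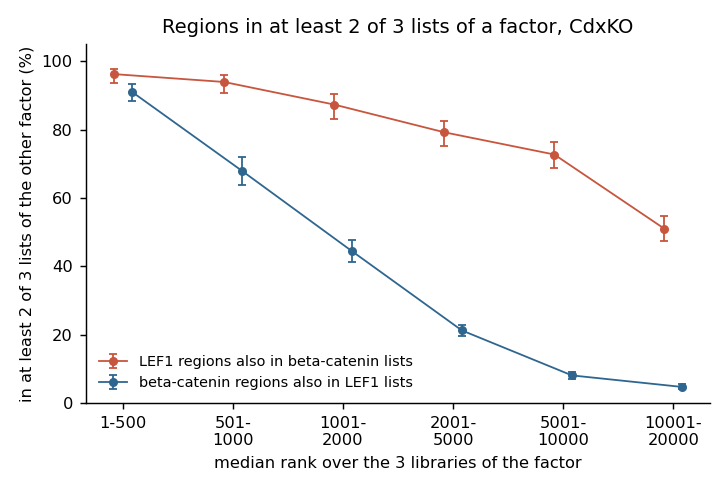
Share of regions (%, y axis) called in at least 2 of 3 CdxKO lists of a factor that were also in at least 2 of 3 lists of the other factor, by median rank (x axis). Error bars are 95% Wilson intervals. LEF1 regions (red) fell from 96.2 to 51.0%, β-catenin regions (blue) from 91.1 to 4.78%.

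The separate classes differed in the full lists of the other factor. Of the 5831 β-catenin only regions, 1389 (23.8%) were in no full LEF1 list and 658 (11.3%) in all 3. Of the 456 LEF1 only regions, 318 (69.7%) were in no full β-catenin list and 4 in all 3. Full LEF1 lists cover more of the genome, 3.56% on average against 0.603% for full β-catenin lists, and their part in these counts was not tested.

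The TCF/LEF word marked the top of both lists. Within 100 bp of the summit it was present in 67.2, 64.7 and 63.7% of the 1000 best LEF1 peaks (replicates 1 to 3) and in 63.8, 61.2 and 70.1% of the 1000 best β-catenin peaks. The same windows moved by 1000 bp held it in 6.40 to 7.80% and 7.10 to 7.50%, and 201 bp tiles over the genome in 9.26%. Among 32851 RefSeq promoters of 300 bp, 8.65% held it. The groups overlapped at 1000 peaks and parted below. At 5000 peaks LEF1 libraries lay between 34.6 and 37.1% and β-catenin libraries between 47.1 and 55.6%. Over the 20000 best the shares were 21.6 ± 0.583% for LEF1 and 29.2 ± 1.55% for β-catenin (SD, n = 3), a difference of −7.58 percentage points (two-sided exact permutation p = 0.10, the smallest possible, adjusted p = 0.10 over 6 motifs).

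**Figure D3:**
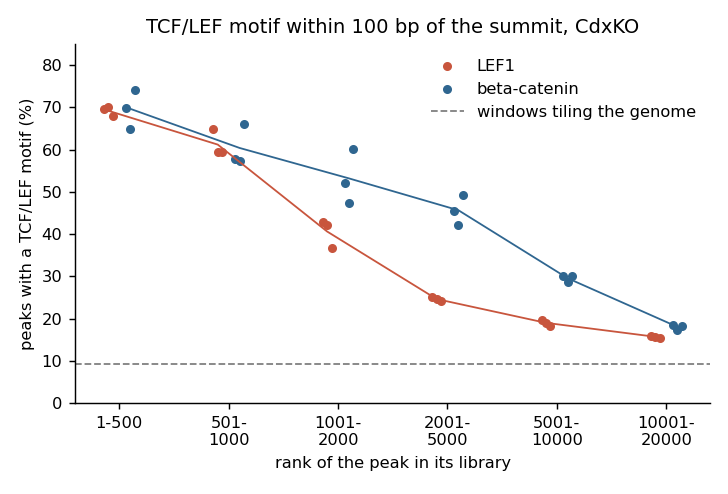
Share of peaks (%, y axis) with a TCF/LEF word within 100 bp of the summit in CdxKO libraries, by rank (x axis). Points are libraries (n = 3 a factor), lines are means and the dashed line is the share of 201 bp genome tiles (9.26%). LEF1 began at 69.2% and β-catenin at 69.7%, and LEF1 (red) fell below β-catenin (blue) from rank 1001 on.

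Other features also parted the 20000 best peaks of the 2 factors, and the 3 LEF1 libraries lay apart from the 3 β-catenin libraries for each one tested. SOX words were found at 9.03 ± 0.208% of LEF1 and 12.0 ± 0.971% of β-catenin summits, OCT words at 4.95 ± 0.106% and 6.61 ± 0.463%, and T-box words at 3.32 ± 0.0656% and 5.34 ± 0.431%. CDX words went the other way, at 13.6 ± 0.187% and 9.59 ± 0.451%, and both stood below the 19.7% of genome tiles. Summits within 1000 bp of a start site made up 7.87 ± 0.478% of LEF1 and 13.4 ± 1.06% of β-catenin peaks. The GC content of the windows was 45.9 ± 0.134% and 49.3 ± 0.594%, against 41.7% in the genome. It moved with the motif and promoter shares, and its part in them was not tested. Each of these differences had a two-sided exact permutation p of 0.10, for the motifs also after adjustment over 6.

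The promoter share turned round at the top of the lists. Among the 1000 best peaks it was 11.5 to 13.9% for LEF1 and 6.50 to 7.90% for β-catenin, a difference of 5.30 percentage points (two-sided exact permutation p = 0.10). At 5000 the difference was only −0.773 (two-sided exact permutation p = 0.400), and at 20000 it was −5.53. From 1000 to 20000 peaks the mean fell from 12.4 to 7.87% for LEF1 and rose from 7.13 to 13.4% for β-catenin, and in full lists both were lower again, at 5.36 and 10.9%.

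With WT and T/BraKO libraries of both factors added, 9 libraries a factor could be compared within genotypes. The TCF/LEF share was 10.7 percentage points lower for LEF1 (−9.18 in WT, −7.58 in CdxKO, −15.5 in T/BraKO), and the promoter share 7.30 lower (two-sided exact permutation test with 8000 assignments within genotypes, p = 0.000250, the smallest possible, and adjusted p = 0.000286 over 8 measures, for both). SOX, OCT, T-box and CTCF words and GC content reached the same p. For CDX words the mean difference of 1.72 points (exact p = 0.0158, adjusted p = 0.0158) was made up of 4.00 in CdxKO, 0.917 in WT and 0.247 in T/BraKO. The excess of CdxKO over the other genotypes, 3.42 points by pairs of the same replicate number, did not pass after adjustment (exact permutation p = 0.0238 over 84 assignments, adjusted p = 0.171 over 9 comparisons of genotypes). Among the 20000 best β-catenin peaks, CDX words were at 9.22 to 10.1% in CdxKO and at 12.8 to 15.9% in WT and T/BraKO. For LEF1 peaks the ranges were 13.4 to 13.7% and 14.3 to 15.6%. The larger gap in CdxKO thus went mostly with lower β-catenin shares, and shares of a single factor were not tested between genotypes.

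Without CDX factors the 2 lists still overlapped. The share of the 20000 best β-catenin peaks that overlapped a LEF1 peak of the same replicate number was 12.9, 12.8 and 12.1% in CdxKO, 12.2, 7.70 and 9.62% in WT, and 8.12, 9.64 and 10.2% in T/BraKO. CdxKO values were 3.01 percentage points above the mean of the others (two-sided exact permutation p = 0.0476 over 84 assignments, adjusted p = 0.171), and WT replicate 1 lay above CdxKO replicate 3. Without any 1 CdxKO pair the difference was 2.84 to 3.27 and its p 0.0714 to 0.107. Shared regions by the same rule numbered 1477 in WT, 2062 in CdxKO and 1310 in T/BraKO, which were 77.4, 75.5 and 75.5% of the regions in at least 2 LEF1 lists.

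Shared regions stood apart from separate ones in sequence and in the calls of other libraries, neither of which entered their definition. Within 100 bp of the best summit, the TCF/LEF word was present in 67.1% of shared regions (65.1 to 69.1%), 41.4% of LEF1 only regions (37.0 to 46.0%) and 34.1% of β-catenin only regions (32.9 to 35.3%). Regions of a single LEF1 or β-catenin list held it in 14.6 and 15.7%. At least 2 words were present in 17% of shared, 5.26% of LEF1 only and 5.06% of β-catenin only regions. SOX2, the pluripotency and neural factor, was called in at least 2 of 3 CdxKO lists at 59.6% of shared (57.5 to 61.7%), 32.0% of β-catenin only (30.9 to 33.2%) and 3.51% of LEF1 only regions (2.17 to 5.62%). Without matching by rank, the shared regions were also called more often in other genotypes. WT β-catenin lists called 91.9% of them, 52.9% of β-catenin only and 4.17% of LEF1 only regions. WT LEF1 lists called 50.2, 2.73 and 5.48%, so that LEF1 only regions of CdxKO were rarely LEF1 regions in WT. Of the 456 LEF1 only regions, 20 were in all 3 LEF1 lists. How many regions would coincide by chance in 2 lists was not estimated, and LEF1 only regions were not matched to others by LEF1 rank. The shares in this paragraph describe the classes and were not tested.

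**Figure D4:**
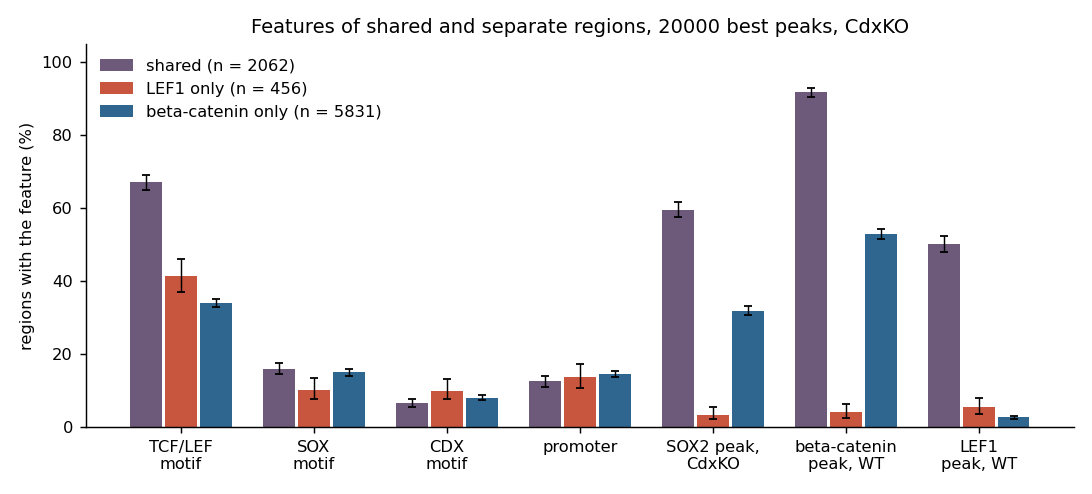
Share of regions (%, y axis) with each feature in shared, LEF1 only and β-catenin only regions of CdxKO (20000 best peaks). Error bars are 95% Wilson intervals, which cover counting error only. SOX2 peaks lay at 59.6% of shared and 3.51% of LEF1 only regions, with classes not matched by rank.

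Shared regions also ranked better, so classes were set side by side within ranges of β-catenin rank. From rank 2001 to 5000, the TCF/LEF word was in 65.7% of 540 shared regions (61.6 to 69.6%) and 38.9% of 1253 β-catenin only regions (36.3 to 41.7%). From 10001 to 20000 the shares were 59.1% of 132 (50.6 to 67.1%) and 31.2% of 2208 (29.3 to 33.1%). SOX2 calls were at 51.9% and 42.9% in the first range, 33.9% (28.2 to 40.1%) and 32.5% (30.6 to 34.6%) from 5001 to 10000, and 31.8% and 23.0% in the last. SOX words were as frequent in one class as the other to within their intervals, 16.9% (13.9 to 20.2%) and 15.2% (13.3 to 17.3%) from rank 2001 to 5000. WT β-catenin lists called 99.7% of shared and 99.1% of β-catenin only regions from rank 1001 to 2000. From 2001 to 5000 the shares were 94.4% (92.2 to 96.1%) and 81.6% (79.3 to 83.6%), and from 10001 to 20000 they were 51.5% and 31.5%.

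The summits of the 2 factors lay close together. Over the 892 regions in all 6 lists, the median distance between a LEF1 and a β-catenin summit was 26.2 bp (25.0 to 27.0 bp over 9 pairs), shorter than between 2 LEF1 summits (31.8 bp, 31.5 to 32.0 over 3 pairs) and longer than between 2 β-catenin summits (16.7 bp, 16 to 17). A LEF1 and a β-catenin summit were within 100 bp in 91.0% of cases. The median distance from the summit to the TCF/LEF word, where present, was 25.0, 22.0 and 23.0 bp in LEF1 libraries and 23.0, 22.0 and 23.0 bp in β-catenin libraries. Peaks were narrower for LEF1, with median widths of 341, 336 and 299.5 bp against 518, 446 and 595 bp, and less enriched, with median folds of 15.4, 14.2 and 12.2 against 30.1, 26.8 and 30.4. The order of ranks was shared in part. The Spearman correlation of ranks across these regions was 0.369 to 0.453 between factors, 0.482 to 0.527 between LEF1 libraries and 0.775 to 0.883 between β-catenin libraries, as a description across regions of the same libraries.

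The 5 best regions called in all 6 libraries lay in the Mapkap1 intron shown above, between genes near Foxb1, Tmem176a and Naa30, and 7414 bp upstream of 2510009E07Rik. At Mapkap1 the fold enrichment was 109, 91.1 and 78.1 for LEF1 and 196, 199.7 and 236 for β-catenin, with ranks of 3, 4 and 6 and of 1, 1 and 2. Each of these 5 held the TCF/LEF word and was called by SOX2 in CdxKO and by both factors in WT and T/BraKO in 3 of 3 lists. The region near Tmem176a was 80.1% repeat-masked. The best LEF1 only regions were far weaker. Their leading member, in Gm10722 at the start of chromosome 9, had ranks of 789, 241 and 387 at folds of only 2.48, 3.14 and 2.56. The others lay near Katnal2, Tex33, Rrm2 and H2-Q1, and those near Tex33 and Rrm2 held the word. The best β-catenin only regions, near Cga, Chst7, Rhcg, Dmc1 and Cdk5r1, had folds of 21.1 to 87.1, and each was in at least 2 full LEF1 lists below the 20000 best peaks. They thus had LEF1 peaks of lower rank in those lists. Full LEF1 lists cover 3.56% of the genome on average, and overlap with them by chance was not estimated. Cga, which encodes the common subunit of glycoprotein hormones, had β-catenin folds of 62.9, 51.3 and 50.9.

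Genes were then scored by the regions within 10000 bp of them. Over all 21911 protein-coding genes, 5.86% had a shared region, 1.73% a LEF1 only region and 15.3% a β-catenin only region. Of 144 genes in 7 developmental lists, 46 (31.9%) had a shared, 10 (6.94%) a LEF1 only and 89 (61.8%) a β-catenin only region. The lists were chosen with results of these data known, and these counts were not tested. None of 12 genes of liver, muscle and blood had a region of any class.

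WNT feedback and response genes were among the most often shared, with 13 of 24 holding a shared region, 18 a β-catenin only and 4 a LEF1 only region. At Sp5, a transcription factor that is a direct WNT target, β-catenin ranked 15, 7 and 15 (folds 143, 148 and 169) and LEF1 159, 287 and 160 (folds 28.9, 20.9 and 22.3), so all β-catenin ranks were better. Axin2, a scaffold of the complex that destroys β-catenin, held 4 shared regions. At the best of them β-catenin ranked 121, 282 and 214 and LEF1 239, 227 and 1454, with overlapping groups. Znrf3, a ubiquitin ligase that removes WNT receptors, also held 4 shared regions, with β-catenin ranks of 212, 423 and 227 and LEF1 ranks of 195, 273 and 36 at the best. At Nkd1, an inhibitor of the pathway, β-catenin ranked 241, 344 and 513 and LEF1 223, 390 and 192. At Tcf7l2, a TCF family gene, the order was reversed: LEF1 ranked 117, 74 and 71 and β-catenin 550, 682 and 375, with no overlap.

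The genes of the DNA-binding partners themselves differed. At Lef1 the shared region 4373 bp upstream of the start (β-catenin ranks 233, 189 and 228, LEF1 ranks 674, 284 and 1102) stood beside a β-catenin only region 663 bp upstream (β-catenin ranks 710, 1515 and 835) that was still in 2 full LEF1 lists. The largest ratio of median ranks was at Tcf7l1, which encodes a mostly repressive family member and was singled out after its values were seen. There LEF1 ranked 9, 73 and 1, at folds of 88.9, 35.1 and 111, and β-catenin 3202, 2700 and 5010, at folds of 11.7, 12.9 and 7.84. The summit lay in coding sequence of the first exon, 449 bp from the gene's start. The LEF1 peaks (chr6:72788075-72788940 together) held the starts of 3 exons but ended short of the gene's start, at 72789254 on the minus strand. SOX2 also ranked high there in CdxKO, at 10, 447 and 234. Peak lists do not show the shape of the signal over these exons, so whether the ranks reflect binding of LEF1 was not tested.

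Among the 892 regions in all 6 lists, every LEF1 rank was better than every β-catenin rank at 103 (11.5%), and the reverse held at 147 (16.5%). The ranks overlapped at 642. The TCF/LEF word was in 67% of the first set (57.4 to 75.3%) and 66.7% of the second (58.7 to 73.8%). Promoters made up 20.4% (13.7 to 29.2%) and 6.80% (3.74 to 12.1%), and windows over 50% repeat-masked 15.5% (9.79 to 23.8%) and 43.5% (35.8 to 51.6%). The WT and T/BraKO libraries, which had no part in choosing these sets, showed how far the order held. Of the 103, LEF1 had the better median rank at 72 (69.9%) in WT and 67 (65%) in T/BraKO, against 26.9 and 21.6% of all 892. Of the 147, it had the better median rank at 14 (9.52%) and 5 (3.40%). The full order, with every LEF1 rank better, held at 28 (27.2%) of the 103 in WT and 36 (35.0%) in T/BraKO. Of all 892, 5.61 and 6.17% showed it. The full reverse order held at 63 (42.9%) and 87 (59.2%) of the 147, against 28.7 and 36.2% of all 892.

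The 5 regions with the largest ratio of median ranks in each direction were tested on the WT and T/BraKO libraries alone, with two-sided exact permutation tests of log10 rank over 400 assignments within genotypes (smallest p 0.00500), adjusted over 10 tests. At Tcf7l1 LEF1 ranked 274, 3 and 213 in WT and 14, 8 and 1 in T/BraKO, while β-catenin ranked 3162, 6091 and 4261 and 2060, 6514 and 4263, a 249-fold ratio of geometric mean ranks (exact p = 0.00500, adjusted p = 0.00833). Introns of Ybx3 (48.0-fold) and Sepsecs (62.3-fold) gave the same p, and SOX2 ranked high there too in CdxKO, at 5, 5 and 210 and at 56, 85 and 694. The regions near Gm17521 and in an intron of Vwf also kept better LEF1 ranks (exact p = 0.030, adjusted p = 0.0333 for both). None of these 5 windows held a TCF/LEF word, and 3 were over 50% repeat-masked. In the other direction, regions in an intron of Urm1 (5.50-fold) and near 1700001O22Rik (27.3-fold) and Nyap2 kept better β-catenin ranks (exact p = 0.00500, adjusted p = 0.00833), as did one near Setd1b (exact p = 0.0150, adjusted p = 0.0214). At Nyap2, LEF1 replicate 3 of WT and replicates 2 and 3 of T/BraKO had no peak and took the rank after the last of their lists, so no ratio is given. The region near Frk did not pass (exact p = 0.0750, adjusted p = 0.0750).

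**Figure D5:**
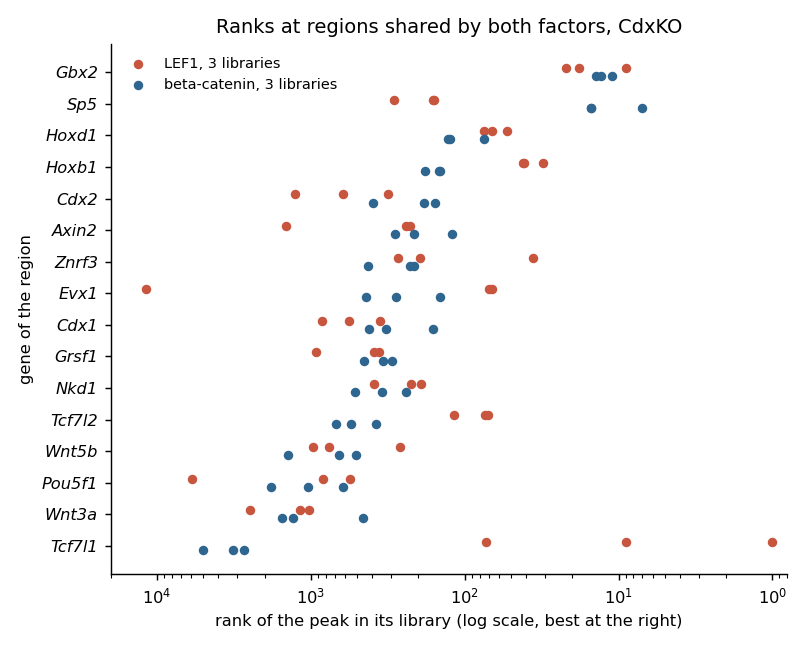
Rank in each library (x axis, log scale, best at the right) of the region shared by LEF1 (red) and β-catenin (blue) at named genes (y axis) in CdxKO, with 3 points a factor. At Tcf7l1 LEF1 ranks of 1 to 73 faced β-catenin ranks of 2700 to 5010, and at Sp5 β-catenin ranks of 7 to 15 faced LEF1 ranks of 159 to 287.

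Of the 3 mutated genes, 2 had shared regions nearby. Cdx1 held 2 shared regions. At the better of them, 113 bp upstream of its start, β-catenin ranked 160, 325 and 416 and LEF1 355, 852 and 568, with overlapping groups. Cdx2 also held 2, the better in its intron (chr5:147303989-147305500), where β-catenin ranked 156, 184 and 392 and LEF1 1274, 619 and 315, again with overlap. Cdx4 had no shared region and 1 β-catenin only region, with ranks of 6607 and 14754 in replicates 2 and 3. A peak at these genes does not check the deletion, since the lists do not show which bases were removed.

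Caudal epiblast and primitive streak genes had a shared region in 12 of 18 cases, a β-catenin only region in 9 and a LEF1 only region in 1. The best shared regions lay near Grsf1, at the start of Wnt5b, near Wnt3a and Evx1, and in an intron of Greb1. Near Evx1, a homeobox gene of the primitive streak with 3 shared regions, LEF1 ranked 11810, 66 and 69 and β-catenin 278, 440 and 144 at the best. LEF1 replicate 1 stood apart from the other 2 at that region, but its best peak within 10000 bp of the gene ranked 879. At Wnt3a, a ligand of the tail bud, LEF1 ranked 1181, 1035 and 2495 and β-catenin 1544, 1315 and 456. Fgf8 had 1 shared and 2 β-catenin only regions, the best 9310 bp downstream of its start (β-catenin ranks 2192, 1936 and 935), and Epha5 had only β-catenin only regions. T, the mesodermal T-box gene, had no shared region. Its best β-catenin ranks were 252, 386 and 440, and its best LEF1 ranks, in the full lists, 2845, 33227 and 888.

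Of 12 paraxial mesoderm genes, 9 had a β-catenin only and 3 a shared region, beside 15.3% and 5.86% of all protein-coding genes, where β-catenin only regions were also the more frequent. At the shared region of Hes7, an oscillator of somite formation, 2318 bp upstream of its start, β-catenin ranked 11, 53 and 98 (folds 127, 71.7 and 62.4), while LEF1 ranked 1832 and 4868 in replicates 2 and 3 and had no peak in that region among the 20000 best of replicate 1, whose best peak within 10000 bp of the gene ranked 9481. Tbx6 and Pcdh8 held the other shared regions, each in 2 LEF1 lists, and Dll1, a Notch ligand, had 2 β-catenin only regions and no shared region. Of 16 mesendoderm and Nodal pathway genes, 3 had a shared, 11 a β-catenin only and 0 a LEF1 only region. Foxa2, Eomes and Mesp1 held the shared regions, each in 2 LEF1 lists, and Nodal had 3 β-catenin only regions, the best with β-catenin ranks of 882, 712 and 1767.

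Pluripotency genes were shared in 2 of 19 cases, β-catenin only in 11 and LEF1 only in 1. Upstream of Pou5f1, which encodes OCT4, LEF1 ranked 555, 5943 and 829 and β-catenin 1042, 621 and 1805. Klf5 held the other shared region, Esrrb the LEF1 only region (ranks 2617 and 19352 in replicates 2 and 3), and Fgf5 and Prdm14 the best β-catenin only regions. Neural genes were shared in 3 of 16 cases, Gbx2 and Meis2 among them, β-catenin only in 10 and LEF1 only in 0. Gbx2, a gene of the anterior hindbrain and posterior epiblast, had the best-ranked shared region of all the listed genes, 4867 bp upstream of its start, with LEF1 ranks of 22, 18 and 9 and β-catenin ranks of 14, 11 and 13. Its groups overlapped, and the summit window held no TCF/LEF word. Meis2 had 1 shared and 5 β-catenin only regions.

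Hox genes were shared in 10 of 39 cases, β-catenin only in 21 and LEF1 only in 3. Neighbouring genes of a cluster share regions, so the counts are not independent. The best-ranked shared regions were at the 3' ends of the clusters. Upstream of Hoxd1 LEF1 ranked 66, 75 and 53 and β-catenin 124, 75 and 129. At the start of Hoxb1 LEF1 ranked 42, 31 and 41 and β-catenin 144, 146 and 182, with every LEF1 rank better. A region between Hoxb2 and Hoxb3 was also shared. Hoxb13, at the 5' end of its cluster, had a β-catenin only region (ranks 484, 484 and 771). Position in a cluster did not sort the classes cleanly. Hoxb9 had 1 shared region, and Hoxb1, Hoxb2 and Hoxb3 also had 2, 3 and 5 β-catenin only regions. The LEF1 only region of Hoxc5 and Hoxc6, which held 2 TCF/LEF words, ranked 9102 and 2038 in replicates 1 and 2. Both genes also had 1 shared region.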

How the data were processed

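ChIP–seq libraries of LEF1, β-catenin and SOX2 were analysed from peak lists. Per the paper, the authors trimmed single-end reads with Trim Galore, aligned them to mm10 with BWA, filtered them and called narrow peaks per library with MACS (MACS2 per the labels) in the nf-core chipseq pipeline, at its default q. The input behind each list is not given in the sources used here. Each deposited ratio is fold enrichment over the local background of MACS, and the deposited −log10 p and −log10 q belong to the same summit. The deposited score, a whole number derived from q, was not used. List length therefore also depends on depth and background, which are not known here.

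Peaks on chromosomes 1 to 19, X and Y were put in order of −log10 q, with ties resolved by −log10 p, fold and position, and the 20000 best of each list were compared. Overlap meant at least 1 bp, and peaks of all 6 libraries were merged into regions. Both strands of GRCm38.p6 within 100 bp of each summit were read for these words: CTTTGAA and CTTTGAT (TCF/LEF), CCATTGT and CCTTTGT (SOX), ATGCAAA (OCT), GGTGTGA (T-box), CAATAAA or CCATAAA or TAATAAA or TCATAAA (CDX) and a CTCF word. The SOX word CCTTTGT has letters in common with the TCF/LEF words. Genes came from GENCODE M21. Tests were exact permutation tests over libraries with Benjamini-Hochberg adjustment and a threshold of 0.05. Python 3.11.15, NumPy 2.4.6, pandas 2.3.3 and SciPy 1.17.1 were used, and overlap and test functions were tested on simulated lists.

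Members, gene lists and words were chosen with earlier results of these data known. Named were the 3 deleted genes, up to 5 genes a list with the best shared region and up to 2 with a region of each factor alone, and the genes nearest the 5 best regions called in all 6 libraries or in 3 of 3 against 0 of 3. Tcf7l1, the rank-contrast regions, the motif-bearing Tex33 and Rhcg regions, and T were added after their values were seen. Some genes that the rule names are not reported here. Alternatives covered the number of peaks, ranking by fold, summit distance, windows, omitted libraries and the replicate block. Replicates were biological replicates per the labels, which carry the same experiment tag for all samples. Per the paper, the replicates of each condition came from separate experiments.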

Additional observations from a re-analysis of the deposited data

How the results depend on the processing

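The TCF/LEF, GC and promoter differences between factors turned round with the 1000 best peaks, to 0.167 (exact permutation p = 1.00), 0.312 (p = 0.500) and 5.30 percentage points (p = 0.10), and otherwise kept their direction under every alternative tried (5000 best, full lists, ranking by fold, each library left out and, where they apply, narrower windows and masked windows left out). With the 5000 best, the promoter difference was only −0.773 points (two-sided exact permutation p = 0.400). SOX and CDX shares, list length and the overlap excess kept their direction under all, but the overlap excess was only 0.0151 to 0.0220 without 1 β-catenin library (one-sided exact permutation p = 0.400) and 0.105 to 0.106 without 1 LEF1 library. The replicate block (sign flips of 3 pairs of the same number, smallest p 0.25) left the TCF/LEF difference at −7.58 (exact p = 0.250) and changed no call. Same-numbered libraries deviated together weakly (correlations 0.00413, 0.00475 and 0.00324), and libraries of other numbers had values of −0.00339 to −0.000661. Whether the numbers mark a shared origin was not tested. The tests within 3 genotypes did not pair libraries. Comparisons of genotypes used the numbers only to form 1 value from each LEF1 and β-catenin library, and other pairings were not run. Over 3 genotypes, at peak numbers chosen after seeing the data, the 1000 best gave −4.74 for TCF/LEF (exact permutation p = 0.123), −0.803 for GC (p = 0.0693), 3.31 for promoters (p = 0.00575), −0.10 for CDX (p = 0.905) and 0.10 for CTCF words (p = 0.862), and the 5000 best gave 0.673 for CDX (p = 0.437). The excess of same-number overlap in CdxKO was 1.21 with full lists (exact permutation p = 0.869), 5.82 with the 1000 best (p = 0.179), 2.80 ranked by fold (p = 0.0595) and 2.84 to 3.27 without 1 CdxKO replicate. With 3 of 3 libraries required, shared, LEF1 only and β-catenin only regions numbered 892, 20 and 2287, and 1389 β-catenin only regions were in no full LEF1 list. Without 1 library the 3 counts ran from 1313 to 1912, from 156 to 534 and from 3149 to 6589. Listed genes with a shared region were 19 by gene body and 71 within 50000 bp, those with a LEF1 only region 22 within 50000 bp, and those with a β-catenin only region 42 by gene body. The cause of these changes was not tested. Without read totals, a peak missing from a list cannot be read as absence of binding.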
